A study of Mus musculus with 28 samples.

Results

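AP-1 is a family of transcription factors made of pairs of FOS and JUN proteins, and most of its genes belong to the immediate early genes, which cells switch on within minutes of a stimulus without making new protein first. In neurons, calcium entry and growth factor signals act through CREB, SRF and related factors on these genes, and their RNA is widely read as a trace of recent activity. The genes followed here were the FOS family members Fos, Fosb and Fosl2, the JUN family members Jun, Junb and Jund, the activity-dependent transcription factors Egr1, Npas4 and Nr4a1, and Arc, which encodes a protein of synapses that takes part in glutamate receptor removal. These 10 genes were chosen by symbol, out of 14879 genes listed in either of the tables of 2 mouse brain tissues. All 10 were listed for adult prefrontal cortex (PFC). In embryonic cortex 7 were listed, and Fosb, Junb and Npas4 had no row.

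RNA sequencing libraries came from mice carrying a knockout of Myt1l, a zinc-finger transcription factor gene of neurons, and the stated aim was to learn how loss of the protein changes chromatin and transcripts. At E14.5, an embryonic day when cortical neurons are being born, the cortex of 4 homozygous (Hom), 6 heterozygous (Het) and 6 wild-type (WT) embryos was sampled. In adults, the PFC of 6 Het and 6 WT mice was sampled, with 3 females and 3 males in each group. By label, 3 of 4 Hom, 3 of 6 Het and 5 of 6 WT embryos were female. Each library has its own animal identifier. The sources used here do not give the strain, the adult age, any transgene or Cre driver or the deleted stretch of Myt1l. Values are in CPM, read counts per fixed library total after the authors' scaling and adjustment. These were bulk tissue pieces, so fewer cells of a type and less RNA per cell cannot be told apart.

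Myt1l itself ran from 18.1 to 23.3 CPM in Hom embryos, from 30.6 to 59.5 CPM in Het embryos and from 45.9 to 66.6 CPM in WT embryos. In the PFC it ran from 105 to 121 CPM in Het mice and from 146 to 168 CPM in WT mice. The groups were apart in Hom against WT embryos and in the PFC, and they overlapped in Het against WT embryos. The Y-linked transcript Ddx3y fitted the labelled sex in all but 2 libraries, both from E14.5 Het embryos: a library with a female label (Het F10) had 21.6 CPM, and a library with a male label (Het M11) had 0. Markers of embryonic cortex were listed for 14 of 14 genes at E14.5 and markers of adult cortex for 12 of 12 genes in the PFC, none of them at 0 throughout a group. Totals of the adjusted counts lay between 27827467 and 30811856 for E14.5 libraries and between 19601294 and 21275162 for PFC libraries. They follow the scaling, and the sequencing depth is unknown.

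The regions around the transcription starts are shown so that Fosl2, the member called between genotypes, can be read beside Jun, Fos and Nr4a1. Each runs from 250 bases before to 50 bases after the start in RefSeq's annotation of GRCm38.p6, 5′ to 3′ on the gene's strand. Capitals mark the letters TGACG, the core of a CREB site. They also mark the core promoter element TATAAA, the EGR site GCGNGGGCG and the motif core of MYT1-family proteins, AAGTT. Each was searched on both strands. A match on the opposite strand appears as its reverse complement, and the Jun window, with no match, has no capitals.
Fosl2, chr5:32136222-32136521, plus strand: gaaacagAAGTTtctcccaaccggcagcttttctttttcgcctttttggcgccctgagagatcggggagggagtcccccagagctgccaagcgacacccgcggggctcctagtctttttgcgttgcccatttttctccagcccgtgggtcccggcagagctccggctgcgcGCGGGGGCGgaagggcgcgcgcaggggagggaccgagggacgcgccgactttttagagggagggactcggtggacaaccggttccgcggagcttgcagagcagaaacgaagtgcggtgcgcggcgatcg
Jun, chr4:95052173-95052472, minus strand: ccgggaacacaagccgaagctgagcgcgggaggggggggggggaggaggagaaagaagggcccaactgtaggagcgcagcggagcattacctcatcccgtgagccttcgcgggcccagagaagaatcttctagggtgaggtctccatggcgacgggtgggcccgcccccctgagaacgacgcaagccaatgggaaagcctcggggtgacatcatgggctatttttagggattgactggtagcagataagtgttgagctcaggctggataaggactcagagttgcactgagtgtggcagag
Fos, chr12:85473640-85473939, plus strand: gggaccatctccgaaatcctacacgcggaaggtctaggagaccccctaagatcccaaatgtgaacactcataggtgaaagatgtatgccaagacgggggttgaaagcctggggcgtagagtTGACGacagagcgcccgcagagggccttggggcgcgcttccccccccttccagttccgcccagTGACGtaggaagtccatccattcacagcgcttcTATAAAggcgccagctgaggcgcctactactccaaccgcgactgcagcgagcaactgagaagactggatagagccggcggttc
Nr4a1, chr15:101266596-101266895, plus strand: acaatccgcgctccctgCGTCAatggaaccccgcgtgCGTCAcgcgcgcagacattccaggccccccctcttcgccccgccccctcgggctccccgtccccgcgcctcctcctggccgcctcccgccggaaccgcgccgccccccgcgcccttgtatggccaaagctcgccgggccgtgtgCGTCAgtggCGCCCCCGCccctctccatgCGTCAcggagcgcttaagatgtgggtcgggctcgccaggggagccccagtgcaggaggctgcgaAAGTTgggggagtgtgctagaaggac

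RefSeq windows were at hand for 8 of the 10 genes. That of Jund was left out, because its RefSeq start lay at position -1210 from the first base of the gene in GENCODE and the window did not reach the gene. In the other 7 the RefSeq start was within 30 bases of the gene's first base in GENCODE for Fos, Fosb, Jun and Junb, and further inside the gene for Npas4 (345 bases), Fosl2 (671 bases) and Nr4a1 (12577 bases). TGACG stood in 5 of the 7, those of Fos, Fosb, Junb, Npas4 and Nr4a1, and in 20.8% of all 32851 windows of the same length. The Fos window held it at positions -129 and -66 counted from the start, with TATAAA at -33. The Nr4a1 window held it 4 times, each on the opposite strand. The windows of Fosl2 and Jun held no TGACG. The EGR site was matched in Fosb, Fosl2 and Nr4a1, against 5.55% of all windows. In Fosl2 it began at position -79. The 7 windows held between 58.7% (Fos) and 72.3% (Nr4a1) G and C, against a median of 52.7% over all windows. The shares of all windows given here were not matched for this content. AAGTT was matched in Fosl2 and Nr4a1, against 39.3% of all windows, so its presence is common. The full CREB palindrome TGACGTCA, the AP-1 site TGANTCA and the CArG box bound by SRF were matched in 0 of the 7, against 1.79%, 7.81% and 1.63% of all windows. Only exact matches were counted, so a site that differs from these letters, such as TGACATCA in the Jun window, was not found by the search. Sequence outside these windows, such as that further upstream, was not searched, and Egr1 and Arc had no window. The absence of a match therefore does not show that a gene lacks such a site. For Fosl2 and Nr4a1 the windows also lay around a start inside the gene. No motif match overlapped another in these windows.

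The members had a different order of levels in the embryo and in the adult. Levels between genes are given as CPM per kilobase of the longest transcript, and the tissues' tables were normalized separately, so their values are set side by side without a test. In WT embryos Jun came first at 4.25 ± 0.203 CPM per kilobase (SD, n = 6) and Jund next at 3.25 ± 0.478. Fosl2 followed at 0.906 ± 0.149. Every WT library of each of these genes lay above every WT library of the next gene. Below them, Fos at 0.404, Arc at 0.352, Nr4a1 at 0.325 and Egr1 at 0.162 CPM per kilobase overlapped from neighbour to neighbour. In Hom embryos the order was the same for Jun (5.42 CPM per kilobase), Jund (4.4) and Fosl2 (1.53). In Het embryos Jun at 4.90 and Jund at 4.42 CPM per kilobase overlapped.

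In the PFC of WT mice, Arc led at 125 ± 23.2 CPM per kilobase (SD, n = 6), followed by Nr4a1 at 60.7 ± 4.26. Fos at 40.3 and Egr1 at 39.9 CPM per kilobase overlapped, as did Junb at 15.1 and Jun at 13.3. Jund stood at 7.17, Npas4 at 4.69 and Fosb at 4.29 CPM per kilobase, and the last pair overlapped. Fosl2 was lowest at 2.06 ± 0.327, apart from its neighbour Fosb. In Het mice Arc led at 144 CPM per kilobase and Fosl2 was again lowest at 3.15. The genes that ranked lowest in the embryo, Fos, Arc, Nr4a1 and Egr1, were thus among the highest in the adult. Jun, Jund and Fosl2 stood at places 1, 2 and 3 of 7 listed genes in WT embryos and at 6, 7 and 10 of 10 in WT adults. Their values per kilobase were not lower in the adult, as for Fosl2 with 0.906 in WT embryos and 2.06 in WT adults, which was not tested.

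**Figure D1:**
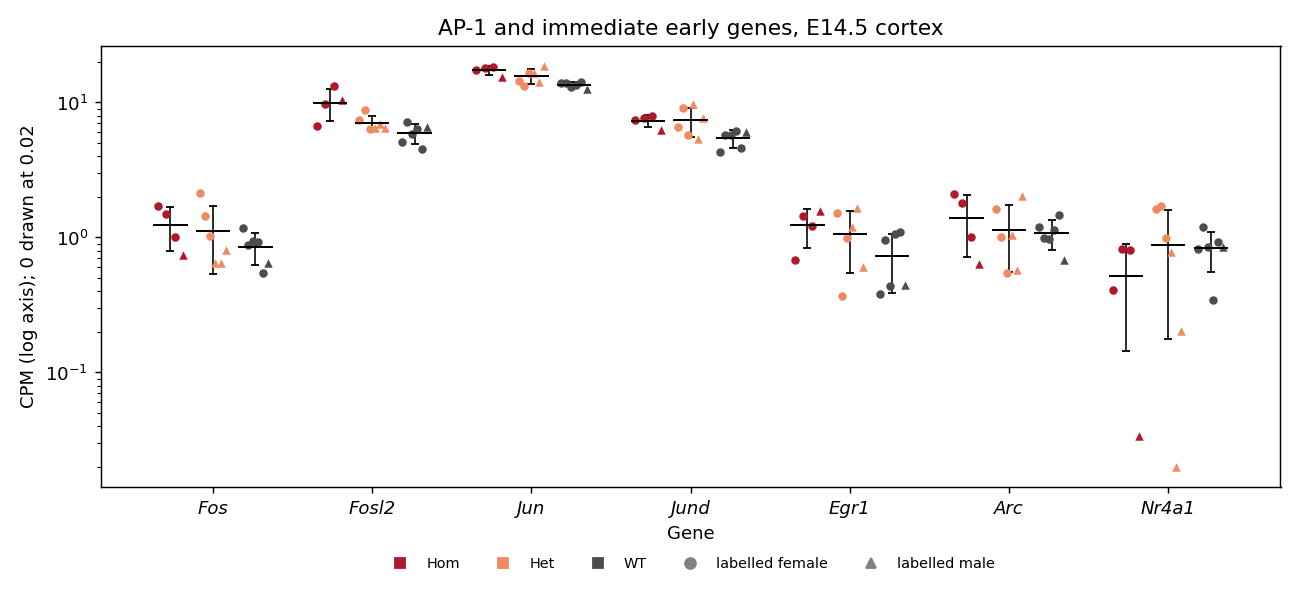
CPM of the 7 listed members in each E14.5 cortex library, on a log axis, for Hom, Het and WT embryos; circles are labelled females, triangles labelled males, and bars the mean and SD. A library at 0 is drawn at 0.02 CPM. For Jun and Jund each Hom point sits above each WT point, and for Fosl2 3 of 4 Hom points do.

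Homozygous loss of Myt1l went with more Fosl2 RNA in E14.5 cortex, and Jun and Jund were higher in each Hom library than in any WT library without passing the test. Of the 7 members listed, 6 passed the filter of at least 1 CPM in at least 4 libraries. Of these 6, 1 rose (Fosl2), 0 fell and 5 did not pass, where a call is a limma adjusted p under 0.05. Of all 12429 genes tested, 7.60% were called in this comparison, and 3.23% were called higher. The median log2 difference, Hom minus WT, was 0.40 over the 6 tested members and 0.02 over all genes tested. It was positive for each of the 6, and for 52.7% of all genes. The untested member, Nr4a1, was lower in Hom, with a mean of 0.518 CPM against 0.829 CPM in WT. Fos and Egr1 passed the filter mainly through mutant libraries. Of the WT libraries only WT F04, at 1.17 CPM, reached 1 CPM of Fos. The shared sign and the median of the 6 thus depend in part on the filter and are given as a description. At an unadjusted p under 0.05 there were 3 members (Fosl2, Jun and Jund) and 23.2% of all genes.

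Fosl2 (chromosome 5, 32135801 to 32157842, plus strand) encodes FRA-2, a FOS family protein without the strong activation domain of FOS. It was at 6.66, 9.72, 13.2 and 10.4 CPM in the Hom embryos F01, F04, F09 and M02, against a lowest, median and highest value of 4.53, 6.07 and 7.18 CPM in WT embryos. The libraries of 3 Hom embryos lay above all WT libraries, and Hom F01 lay inside the WT range. The means were 9.99 ± 2.69 CPM in Hom (SD, n = 4) and 5.92 ± 0.974 CPM in WT (SD, n = 6), a ratio of 1.69. The log2 difference was 0.68 (SE 0.18, limma adjusted p = 0.0182). Within the animals whose identifiers begin with 14424 it was 0.64 over 3 Hom and 4 WT libraries, and within those that begin with 14526 it was 0.81 over 1 Hom and 2 WT libraries. The call was lost without Hom F09 (difference 0.53, adjusted p = 0.0962), without Hom M02 (0.65, adjusted p = 0.0587) and without Hom F04 (0.68, adjusted p = 0.0505). The authors' adjustment removed directions of variation that this test does not count, so its p-values may be too small. With those directions as covariates the adjusted p for Fosl2 was 0.0429.

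Fos (chromosome 12, 85473890 to 85477273, plus strand), the classical activity marker, was low in the embryo. It was at 1.71, 1.5, 1.01 and 0.740 CPM in the Hom embryos F01, F04, F09 and M02, against 0.545, 0.904 and 1.17 CPM (lowest, median, highest) in WT embryos. The groups overlapped. Hom minus WT was 0.39 on the log2 scale (SE 0.25, limma adjusted p = 0.364), with a 95% interval from -0.12 to 0.91. Within the 14424 and the 14526 animals it was 0.60 and -0.31, so its sign was not shared. In these libraries a value of 1 CPM rests on about 30 adjusted counts, since a step of 1 was worth between 0.0335 and 0.0344 CPM.

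Among the JUN genes, Jun (chromosome 4, 95049034 to 95052222, minus strand), the main partner of FOS proteins, was at 17.4, 18.0, 18.4 and 15.4 CPM in the Hom embryos F01, F04, F09 and M02. In WT embryos its lowest, median and highest values were 12.5, 13.8 and 14.1 CPM. The groups did not overlap, and neither did those of 4.80% of all genes tested with Hom above WT. Jun differed by 0.34 on the log2 scale (SE 0.12, limma adjusted p = 0.0694), and its 95% interval ran from 0.10 to 0.58. It passed with only the Hom and WT libraries in the fit (adjusted p = 0.0347), without the libraries labelled Het F10 and Het M11 (adjusted p = 0.0477), and without Het M11 alone (adjusted p = 0.0493). An antisense gene, Junos, overlaps Jun. The sources used here do not say if strand was used in counting, so reads of the pair cannot be told apart.

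Jund (chromosome 8, 70698949 to 70700616, plus strand), the JUN gene with the steadiest expression in most tissues, was at 7.41, 7.71, 7.94 and 6.29 CPM in the Hom embryos F01, F04, F09 and M02. In WT embryos it was at 4.26, 5.75 and 6.12 CPM (lowest, median, highest). These groups did not overlap either, though Hom M02 was close to the highest WT library. For Jund the log2 difference was 0.41 (SE 0.18, limma adjusted p = 0.160). Gm11175 lies antisense to Jund, and the same limit on strand applies.

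The remaining members were low in the embryo. Egr1, a zinc-finger factor induced by SRF and its partners, averaged 1.23 ± 0.393 CPM in Hom (SD, n = 4) and 0.727 ± 0.340 CPM in WT (SD, n = 6). It did not pass (log2 difference 0.50, SE 0.30, limma adjusted p = 0.333). Arc averaged 1.39 ± 0.674 CPM in Hom (SD, n = 4) and 1.07 ± 0.262 CPM in WT (SD, n = 6), and did not pass either (0.23, SE 0.29, limma adjusted p = 0.683). The intervals were wide, from -0.12 to 1.13 for Egr1 and from -0.37 to 0.82 for Arc. Within the 14424 and the 14526 animals Arc differed by 0.47 and -0.55, so its sign was not shared either. Nr4a1, an orphan nuclear receptor, fell below the filter and was not tested. It was at 0.410, 0.819, 0.811 and 0.0337 CPM in the Hom embryos F01, F04, F09 and M02, against 0.342, 0.848 and 1.19 CPM (lowest, median, highest) in WT embryos, and these ranges overlapped.

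In Het embryos no member was called, and at an unadjusted p under 0.05 limma gave 1 of 6, Jund, against 22.3% of all genes. Of all genes tested, 5.83% were called. The 6 differences, Het minus WT, were all positive with a median of 0.26, against 0.03 over all genes, of which 54.8% were positive. These signs also depend in part on the filter, which Fos and Egr1 passed mainly through mutant libraries. Hom and Het were compared with the same WT libraries, so their differences are not independent. Arc lost its sign without sex in the fit (-0.0015) and without Het M11 (-0.03). Voom on the recovered whole numbers also called 0 of the 6.

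Jun was at 13.3, 15.6 and 18.5 CPM (lowest, median, highest) in Het embryos, against 12.5, 13.8 and 14.1 CPM in WT embryos. The libraries of 5 of 6 Het embryos lay above all WT libraries. Jun differed by 0.20 on the log2 scale (SE 0.11, limma adjusted p = 0.288). Jund was at 5.32, 7.17 and 9.79 CPM in Het embryos, against 4.26, 5.75 and 6.12 CPM in WT embryos, with 4 of 6 Het libraries above all WT libraries (0.38, SE 0.17, limma adjusted p = 0.173). The Jund difference was 0.17 within the 14424 animals and 0.82 within the 14526 animals. Fosl2 was at 6.31, 6.70 and 8.74 CPM in Het embryos, against 4.53, 6.07 and 7.18 CPM in WT embryos (0.24, SE 0.16, limma adjusted p = 0.416). Every Het library of Fosl2 was above the WT mean, and 2 were above all WT libraries. Fos (0.39), Egr1 (0.29) and Arc (0.09) overlapped between the genotypes, with limma adjusted p-values of 0.334, 0.599 and 0.883. Nr4a1, untested, was at 0, 0.882 and 1.71 CPM in Het embryos, against 0.342, 0.848 and 1.19 CPM in WT embryos.

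Between Hom and Het embryos no member passed, and Fosl2 alone, 1 of 6, was under 0.05 before adjustment, against 5.12% of all genes. Its log2 difference, Hom minus Het, was 0.45 (SE 0.18, limma adjusted p = 0.957), and 3 of 4 Hom libraries lay above all Het libraries. Of all genes tested, 0.00805% were called, which was 1 gene, Myt1l. Voom called 0 members too. The other 5 differences were between -0.002 for Fos and 0.21 for Egr1. The sign of Fos turned with several settings, and those of Jund and Arc when single libraries were left out.

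Several marker lists moved at E14.5, and their part in the Fosl2, Jun and Jund values was not tested. Hspa8, a heat shock protein, was lower in Hom than in WT (log2 difference -0.35, SE 0.07, limma adjusted p = 0.00411), 1 of 5 tested genes of the heat shock list. The summed level of that list's 6 listed genes ran from 4993 to 5605 CPM in Hom and from 6281 to 7397 CPM in WT, without overlap. Of 11 tested mitochondrially encoded genes, 2 were higher in Hom and 4 in Het, with sums from 7006 to 11226 CPM in Hom, from 6795 to 11381 CPM in Het and from 6097 to 9252 CPM in WT. Of 5 tested astrocyte genes Aldoc was lower in both mutants (-0.42 in Hom, -0.39 in Het). The astrocyte sums ran from 986 to 1044 CPM in Hom, from 965 to 1251 CPM in Het and from 1190 to 1307 CPM in WT. Ppp1r1b, 1 of 6 tested striatal and ventral genes, was 0.72 higher in Hom, where the list's sums ran from 18.3 to 37.5 CPM, against 13.2 to 20.03 CPM in WT. Ogn, 1 of 10 tested meningeal genes, was 0.76 higher in Het, with sums from 322 to 552 CPM in Het and from 235 to 459 CPM in WT. The embryonic cortex markers had 3 of 14 higher and 1 lower in Hom, and 4 higher and 1 lower in Het. Of 10 adult cortex markers tested at E14.5, 0 were called in Hom and 3 in Het, 2 higher and 1 lower. The endothelial, microglial, choroid plexus, erythroid and oligodendrocyte lists had no called gene in either mutant, though several had medians away from 0. In Hom the median log2 difference was -0.35 over 14 endothelial genes, of which 3 were positive, and -0.30 over 10 erythroid genes, of which 1 was positive. In Het all 8 choroid plexus genes were positive, with a median of 0.50 and 3 at an unadjusted p under 0.05. The endothelial list also had 3 such genes in Hom. Their sums in Hom and in WT overlapped, for example 1638 to 2985 CPM in Hom and 1451 to 4125 CPM in WT for choroid plexus. Choroid plexus sums in Het ran from 3088 to 5352 CPM. No gene of these lists was at 0 in all libraries.

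**Figure D2:**
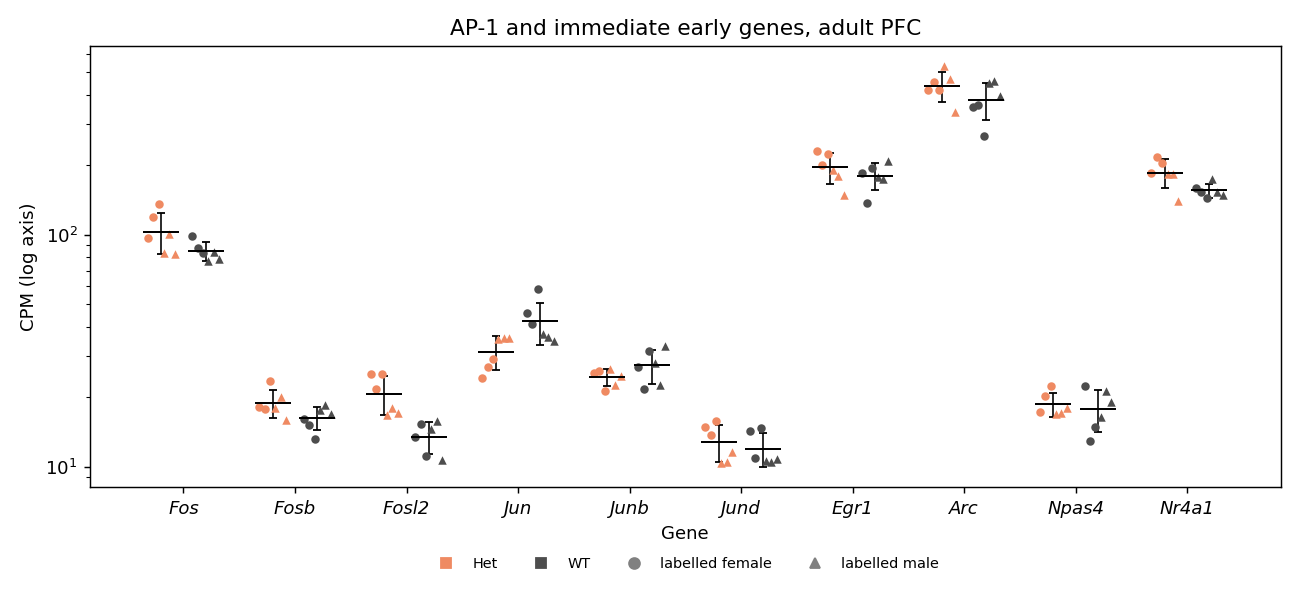
CPM of the 10 members in each adult PFC library, on a log axis, Het left of WT for each gene; circles are labelled females, triangles labelled males, and bars the mean and SD. Fosl2 is the gene whose Het and WT points do not overlap.

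In the adult PFC, Fosl2 was again higher in the mutants, while Fos and Nr4a1 were higher and Jun lower in Het mice without passing the test. All 10 members passed the filter of at least 1 CPM in at least 6 libraries. Of these, 1 rose (Fosl2), 0 fell and 9 did not pass. Of all 12870 genes tested, 0.404% were called, and 0.179% were called higher. The median log2 difference, Het minus WT, was 0.16 over the 10 members and 0.01 over all genes, and it was positive for 8 of 10 members and for 53.8% of all genes. At an unadjusted p under 0.05 there were 4 members (Fosl2, Fos, Jun and Nr4a1) and 13.6% of all genes.

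Fosl2 was at 16.8, 19.8 and 25.1 CPM (lowest, median, highest) in Het mice, against 10.6, 14.03 and 15.7 CPM in WT mice. Each Het library lay above each WT library, which held for 0.350% of all genes tested. The means were 20.6 ± 3.91 CPM in Het and 13.4 ± 2.14 CPM in WT (SD, n = 6 each), a ratio of 1.53. The log2 difference was 0.59 (SE 0.12, limma adjusted p = 0.0283). It was 0.83 within the animals whose identifiers begin with 14309 (4 Het, 3 WT) and 0.19 within those that begin with 14308 (2 Het, 2 WT, all male). WT F04 was the remaining library, with an identifier prefix of its own. The call was lost without sex as a covariate (adjusted p = 0.0997) and without limma's trend and robust settings (adjusted p = 0.173). It was also lost without WT F04 (adjusted p = 0.0698), WT F10 (0.107), WT M11 (0.0811), Het F02 (0.0816), Het F04 (0.0776) or Het F07 (0.0979), with differences between 0.51 and 0.66 over all settings. With the direction removed by the authors' adjustment as a covariate, the adjusted p was 0.0428.

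The other FOS genes were higher in Het mice by less. Fos was at 82.5, 99.0 and 135 CPM in Het mice (lowest, median, highest), against 77.0, 83.9 and 99.0 CPM in WT mice, with 3 of 6 Het libraries above all WT libraries. Its log2 difference was 0.26 (SE 0.08, limma adjusted p = 0.121). Fosb (chromosome 7, 19302696 to 19310051, minus strand), whose truncated splice form builds up under repeated stimulation, was at 15.9, 17.9 and 23.4 CPM in Het mice and at 13.2, 16.4 and 18.4 CPM in WT mice. These ranges overlapped (0.21, SE 0.10, limma adjusted p = 0.386).

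Jun had the opposite sign. It was at 24.2, 32.2 and 36.0 CPM in Het mice (lowest, median, highest), against 34.9, 39.2 and 58.1 CPM in WT mice. The libraries of 3 Het mice, all labelled female, lay below all WT libraries, and the other 3 lay inside the WT range. The log2 difference was -0.42 (SE 0.12, limma adjusted p = 0.136), with a 95% interval from -0.69 to -0.16. At E14.5 the same gene was 0.34 higher in Hom and 0.20 higher in Het than in WT, which also did not pass. Junb (chromosome 8, 84974484 to 84978718, minus strand), which can restrain JUN activity, averaged 24.3 ± 2.00 CPM in Het and 27.3 ± 4.6 CPM in WT (SD, n = 6 each; -0.15, limma adjusted p = 0.509). It overlaps Prdx2 on the opposite strand. Jund averaged 12.8 ± 2.28 CPM in Het and 12.0 ± 1.97 CPM in WT (SD, n = 6 each), with a difference of 0.09 and a 95% interval from -0.13 to 0.31.

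Of the other activity-dependent factors, Nr4a1 (chromosome 15, 101254269 to 101274795, plus strand) was at 140, 184 and 216 CPM in Het mice (lowest, median, highest), against 144, 153 and 174 CPM in WT mice. The libraries of 5 Het mice lay above all WT libraries, and Het M09 lay below them all. Nr4a1 differed by 0.24 on the log2 scale (SE 0.08, limma adjusted p = 0.136). Without Het M09 it was 0.32 and passed (adjusted p = 0.0201). Egr1 (chromosome 18, 34859823 to 34864984, plus strand) was at 148, 195 and 230 CPM in Het mice and at 137, 181 and 208 CPM in WT mice, with wide overlap (0.12, SE 0.11, limma adjusted p = 0.656). Npas4 (chromosome 19, 4984355 to 4990316, minus strand), a neuronal factor that responds to calcium entry in particular, was at 16.8, 17.6 and 22.3 CPM in Het mice and at 12.95, 17.7 and 22.3 CPM in WT mice. Its difference was 0.08, with a 95% interval from -0.16 to 0.33.

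Arc (chromosome 15, 74669083 to 74672570, minus strand), the most abundant member per length in this tissue, was at 339, 437 and 533 CPM in Het mice and at 267, 379 and 460 CPM in WT mice (lowest, median, highest). The ranges overlapped. The log2 difference was 0.21 (SE 0.12, limma adjusted p = 0.478), and without Het M09 it was 0.31 and passed (adjusted p = 0.0463). In Het M09 Arc, Nr4a1, Egr1, Fos and Fosb were each at their lowest among the Het libraries, and the remaining members were not.

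**Figure D3:**
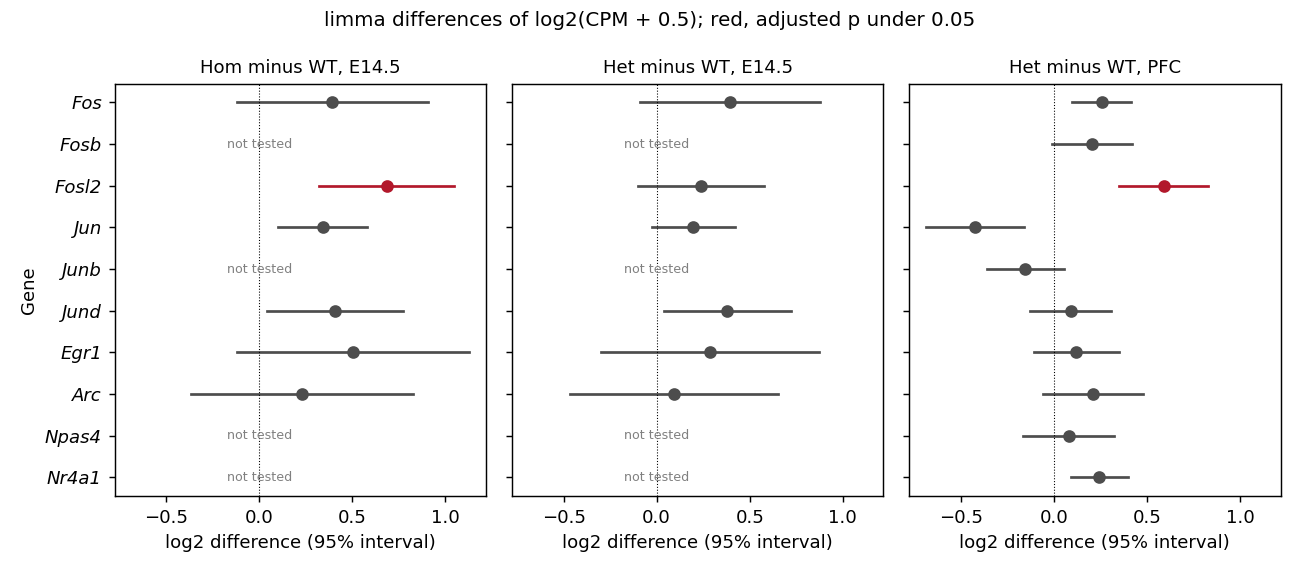
limma log2 differences of log2(CPM + 0.5) for each member, with 95% intervals, for Hom minus WT and Het minus WT at E14.5 and Het minus WT in the PFC; red marks an adjusted p under 0.05. Fosl2 is the red gene in the first and last panels, at 0.68 and 0.59, and Jun lies right of 0 at E14.5 and left of it in the PFC.

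Few marker genes were called in the PFC, though several lists had many genes at an unadjusted p under 0.05. Hbb-bt, 1 of 5 tested erythroid genes, was lower in Het mice (log2 difference -0.54, limma adjusted p = 0.0441), and the erythroid sums ran from 318 to 503 CPM in Het and from 333 to 576 CPM in WT. All 7 tested heat shock genes had negative differences and 0 were called, with sums from 4298 to 5709 CPM in Het and from 5155 to 5912 CPM in WT. No gene was called among the adult cortex, embryonic cortex, endothelial, microglial, meningeal, choroid plexus, striatal, astrocyte, oligodendrocyte and mitochondrial lists. Their sums overlapped between the genotypes, as for the adult cortex markers at 2733 to 3061 CPM in Het and 2693 to 2985 CPM in WT. At an unadjusted p under 0.05 there were 4 of 5 erythroid, 5 of 12 adult cortex, 4 of 12 embryonic cortex and 3 of 7 heat shock genes. There were also 3 of 12 microglial and 2 of 7 striatal genes, against 13.6% of all genes. The endothelial, astrocyte, oligodendrocyte and mitochondrial lists had 0. The median log2 difference was -0.36 over the erythroid and -0.21 over the striatal genes. The part of these lists in the member values was not tested.

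**Figure D4:**
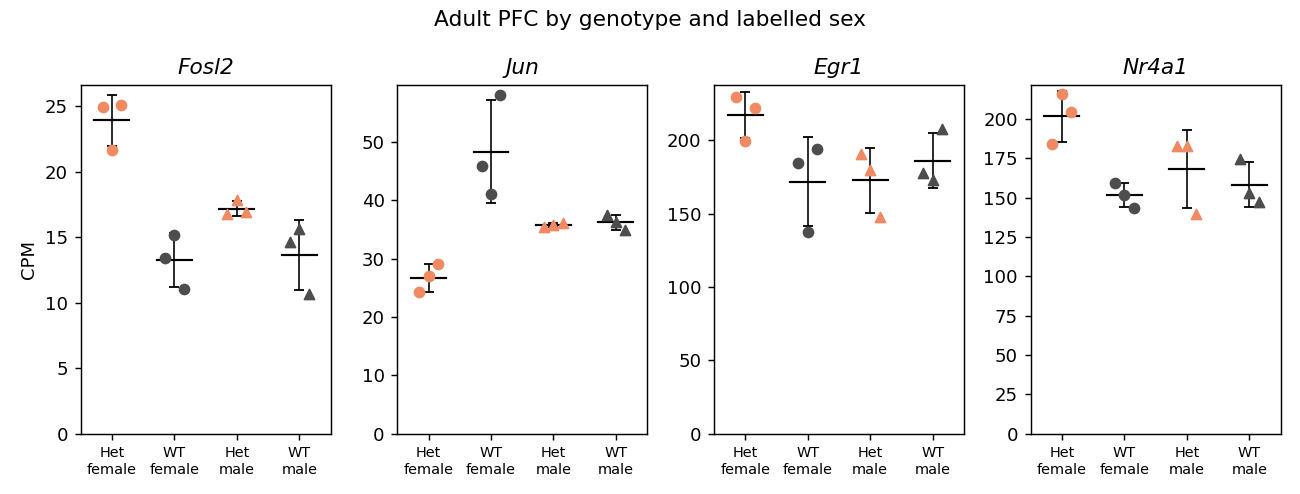
CPM of Fosl2, Jun, Egr1 and Nr4a1 in the adult PFC for Het and WT mice of each labelled sex, 3 libraries per group, with mean and SD. Each Het female point of Jun sits below each WT female point, while Het and WT males lie together near 36 CPM.

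The PFC values were also set out by labelled sex, with 3 libraries in each group. Jun averaged 26.7 ± 2.41 CPM in Het females and 48.3 ± 8.78 CPM in WT females (SD, n = 3 each), without overlap. In males it averaged 35.8 ± 0.264 CPM in Het and 36.2 ± 1.28 CPM in WT (SD, n = 3 each), and the groups overlapped. The difference between the sexes in the Het effect, female minus male, was -0.81 on the log2 scale (SE 0.16, limma adjusted p = 0.237), with a 95% interval from -1.15 to -0.48. It did not pass after adjustment over all genes. It passed without WT F06 (-0.92, adjusted p = 0.0217).

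Fosl2 averaged 23.9 ± 1.94 CPM in Het females against 13.2 ± 2.07 CPM in WT females, a ratio of 1.81 (SD, n = 3 each). In males it averaged 17.2 ± 0.581 CPM in Het against 13.6 ± 2.65 CPM in WT, a ratio of 1.26 (SD, n = 3 each). Het and WT were apart in both sexes. Its difference between the sexes was 0.50 (SE 0.21, limma adjusted p = 0.530), which did not pass. Egr1 at 217 CPM in Het females against 172 CPM in WT females, Nr4a1 at 202 against 152 CPM, Arc at 431 against 328 CPM and Fosb at 19.7 against 14.8 CPM were likewise apart in females. Fos, Junb, Jund and Npas4 overlapped in females. With Jun and Fosl2, 6 of 10 members were thus apart in females, against 22.3% of all genes tested. In males all members but Fosl2 overlapped, and 9.54% of all genes were apart. None of these differences between the sexes passed either, with limma adjusted p-values of 0.497 for Egr1, 0.530 for Nr4a1, 0.648 for Arc and 0.623 for Fosb.

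Across the 10 members, the difference between the sexes in the Het effect was positive for 9 and had a median of 0.35, against 0.001 over all genes, of which 50.2% were positive. No gene in the table was called for it (0%), while 8.48% of all genes and 4 members (Jun, Egr1, Nr4a1 and Fosl2) had an unadjusted p under 0.05. Voom called 0 members. The members share the same 12 libraries and varied together, so their signs are not independent. Sex and identifier prefix partly coincide in the PFC: all 14308 animals were male, so a difference by sex and a difference by prefix cannot be fully told apart.

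Averaged over genotype, no member was called between females and males, where 1.09% of all genes were, and voom called 0 as well. Fos was higher in females by 0.28 (SE 0.08, limma adjusted p = 0.0673) and Jund by 0.36 (SE 0.11, limma adjusted p = 0.0751), the 2 of 10 members with an unadjusted p under 0.05, against 18.1% of all genes. Fos averaged 117 CPM in Het females and 89.95 CPM in WT females, and 88.8 CPM in Het males and 80.0 CPM in WT males. Fos passed without WT F10 (adjusted p = 0.0420), Jund without WT F06 (0.0471) and Arc, with a difference of -0.33, without Het M09 (0.0332). Of the heat shock list, Hspb1 was lower in females (female minus male -1.47) and so was Hspa8 (-0.21). Among other markers, the embryonic cortex genes Sox2, Tbr1 and Dcx, the endothelial gene Cldn5 and the striatal gene Tac1 were higher in females, by 0.50, 0.37, 0.81, 0.41 and 0.29. The part of these genes in the member values was not tested.

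**Figure D5:**
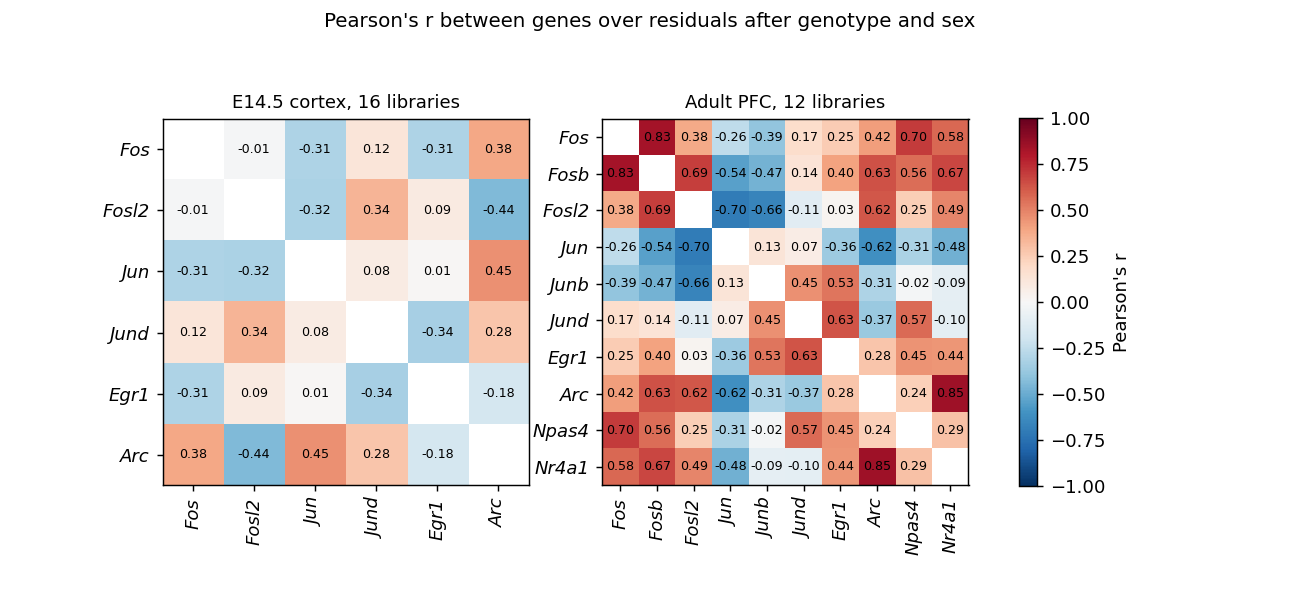
Pearson's r between members over residuals of log2(CPM + 0.5) after genotype and labelled sex, for 16 E14.5 libraries (6 tested members) and 12 PFC libraries (10 members); red is positive and blue negative. The PFC panel holds a red block of Fos, Fosb, Fosl2, Arc and Nr4a1 and blue values for Jun against them.

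After genotype and sex were taken out as separate terms, several members varied together over the PFC libraries. The difference between the sexes in the Het effect stayed in these residuals, for example -0.81 for Jun and 0.50 for Fosl2. Its part in the correlations was not tested. These correlations are descriptions over libraries that share the authors' scaling and adjustment, and no p is given. Over 12 PFC libraries Pearson's r with Fos was 0.83 for Fosb, 0.70 for Npas4, 0.58 for Nr4a1 and 0.42 for Arc. Arc and Nr4a1 had an r of 0.85, and Fosb and Nr4a1 of 0.67. Jun ran against this group, with r of -0.70 with Fosl2 and -0.62 with Arc. Fosl2 and Junb had an r of -0.66. Pairs with Fosb, Junb, Npas4 or Nr4a1 have no E14.5 value. For the others, r with Fos was 0.42 in the PFC and 0.38 over 16 E14.5 libraries for Arc, 0.25 and -0.31 for Egr1, -0.26 and -0.31 for Jun, and 0.38 and -0.01 for Fosl2. Jun and Arc had opposite signs, at -0.62 in the PFC and 0.45 at E14.5.

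Outside the members, the genes whose residuals were most like those of Fos, among those with a mean of at least 5 CPM, were ranked by Pearson's r. Over the 12 PFC libraries the first 8 of 10260 genes were Rtn2 (r = 0.93), Trps1, Rnpc3, Rasa2, Ppfia2, Lrp8, Supt6 and Ppp2r5a (r = 0.88). Over the 16 E14.5 libraries the first 8 of 9258 genes were Hnrnpr (r = 0.91), Pnn, Ift27, Rpap2, Trp53, Ubqln1, Pex16 and Ube2d2a (r = 0.83). No gene stood in both sets. At E14.5 Fos itself rested on few counts.

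The wider programme around these genes was looked at with lists of other immediate early genes, late-response genes, partners of AP-1 and regulators upstream. Of 31 other immediate early genes tested at E14.5, 0 were called in Hom and 1 rose in Het, Fbxo33, an F-box gene (log2 difference 0.81, SE 0.18, limma adjusted p = 0.00968). That was 3.23% of the list in Het, against 5.83% of all genes. The list's median difference was 0.18 in Hom and 0.22 in Het, against 0.02 and 0.03 over all genes. In the PFC 0 of 37 were called in Het mice, with a median of 0.04, against 0.01 over all genes. At an unadjusted p under 0.05 there were 7 of 31 in Hom and 9 of 31 in Het at E14.5, and 8 of 37 in the PFC, against 23.2%, 22.3% and 13.6% of all genes. Between the sexes in the PFC, Egr2 rose in females by 0.65 (limma adjusted p = 0.0166) and Plk2, a kinase that acts at synapses, fell by 0.29 (limma adjusted p = 0.00943).

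Late-response genes, which follow the first wave, had 0 of 14 called in Hom and in Het at E14.5 and 0 of 20 in the PFC. Their medians were 0.15 in Hom, 0.13 in Het and 0.08 in the PFC. At an unadjusted p under 0.05 there were 2 of 14 in Hom, 1 of 14 in Het and 8 of 20 in the PFC, beside the same shares of all genes. In the PFC the lowest adjusted p of this list was that of Inhba, an activin subunit, at a difference of 0.71 (SE 0.15, limma adjusted p = 0.0507), which was singled out after its value was seen.

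Among 16 tested partners of AP-1, 2 rose in Hom embryos. Maf, a basic leucine zipper factor that can bind FOS and JUN, was higher by 0.83 (SE 0.19, limma adjusted p = 0.0111) and Atf5 by 0.64 (SE 0.18, limma adjusted p = 0.0318). Maf also rose in Het embryos (0.72, limma adjusted p = 0.0209), against the same WT libraries. In the PFC 0 of 16 were called. Calls made up 12.5% of the list in Hom and 6.25% in Het, against 7.60% and 5.83% of all genes. At an unadjusted p under 0.05 there were 5 of 16 in Hom, 4 of 16 in Het and 2 of 16 in the PFC. The shares of all genes at that level were 23.2%, 22.3% and 13.6%. The medians were 0.11 in Hom, 0.14 in Het and 0.10 in the PFC.

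Of 38 tested upstream regulators, Ppp3cb, a catalytic subunit of the phosphatase calcineurin, rose in Hom (0.54, SE 0.11, limma adjusted p = 0.00515) and in Het embryos (0.43, limma adjusted p = 0.0158). Creb3 fell by 0.28 in Hom (limma adjusted p = 0.0453), and Camk2a, a calcium-dependent kinase of excitatory neurons, fell by 0.97 in Het embryos (limma adjusted p = 0.0102). In the PFC 0 of 39 were called between genotypes, and Hras was higher in females by 0.36 (limma adjusted p = 0.0242). Calls made up 5.26% of the list in each mutant at E14.5, against 7.60% of all genes in Hom and 5.83% in Het. At an unadjusted p under 0.05 there were 10 of 38 in Hom, 11 of 38 in Het and 4 of 39 in the PFC. The shares of all genes at that level were 23.2%, 22.3% and 13.6%. The medians were -0.01 in Hom, 0.04 in Het and 0.03 in the PFC. Hom against Het gave 0 calls in all 4 lists, and so did the difference between the sexes in the Het effect.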

How the data were processed

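Per the labels' protocols, a Zymo kit and Takara's SMARTer Ultra Low kit were used for extraction and libraries. The submitters' processing notes name Trimmomatic, Bowtie2, STAR, HTSeq and mm10, without versions or roles. The authors deposited log2 CPM values with a prior count of 2, after upper-quartile scaling and RUVr, which removes unwanted variation estimated from residuals; the scale was read from the values. Undoing the logarithm gave whole numbers for 100.0% of values at a tolerance of 0.01. They are adjusted, so not raw reads. A 3-step floor was at most 0.103 CPM at E14.5 and 0.148 CPM in the PFC and covers counting error only.

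Genes reaching 1 CPM in 4 (E14.5) or 6 (PFC) libraries or more were fitted as log2(CPM + 0.5) with genotype and labelled sex in limma 3.58.1 (R 4.3.3; trend, robust), with Benjamini-Hochberg adjustment over all tested genes and a threshold of 0.05. Folds of low genes are understated on this scale, and p-values measure the spread between these libraries. All 12429 and 12870 genes tested entered 1 fit per tissue; the 6 comparisons were Hom and Het against WT, Hom against Het, Het against WT in the PFC, female against male and their interaction. RUVr left 2 (E14.5) and 1 (PFC) directions of near-zero variance, which the main test does not count, so its p-values may be too small. The files name genes by Ensembl identifier and symbol; 13845 of 13846 and 14103 of 14104 matched GENCODE vM21 on GRCm38, from which coordinates and lengths came. The members and lists were chosen with earlier results of these data known. Named genes were the members, Myt1l, up to 4 called genes of each list and the 8 genes most like Fos. Alternatives covered pseudocounts, filters, scaling, covariates, voom and leaving out each library; the tests were tried on simulated data. Figures used matplotlib 3.10.9.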

Additional observations from a re-analysis of the deposited data

Results flagged for a closer look

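Npas4 in the PFC was marked for a closer look because every Het female lay above the WT female mean and every Het male below the WT male mean. The ratio of means, Het over WT, was 1.19 in females and 0.917 in males. By limma's interaction term the difference was 0.39 on the log2 scale (SE 0.23, adjusted p = 0.663), so it did not pass. Het and WT overlapped within each sex. Over 41 groups of libraries, 0 held a value far from the others by Dixon's 95% limits.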

How the results depend on the processing

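Each member's difference was recomputed under up to 29 alternatives per comparison, 1183 values in all: 1122 kept direction and side of the threshold, 11 lost a call, 9 gained a call and 41 changed sign. No sign changed for Hom against WT. The cause of each change below was not tested, except that a fit without a library has fewer samples. No paired analysis was possible because the numbers in the labels name animals within an identifier prefix and match no animal across genotypes, so no replicate block was fitted; the prefix was used as a block instead.

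Members called in Hom against WT (main 1) were 2 with only the groups compared and 2 without Het F10 and Het M11, and 0 to 2 with single libraries left out. In the PFC (main 1) they were 0 without sex as a covariate, 0 without trend and robust settings, and 0 to 3 with single libraries left out. For female against male and for the interaction (main 0 each), leaving out single libraries gave 0 to 1.

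Without sex in the fit, Fos in Hom against Het (main -0.0022) was 0.14 and Arc in Het against WT at E14.5 was -0.0015. Fos in Hom against Het was also 0.0061 at a pseudocount of 0.1 and 0.025 with GC and length correction, and Jund there was -0.044 without Het F10 and Het M11. Between the sexes, Fosb was 0.046 and Arc 0.026 with the prefix block, Jun 0.026 by voom, and Jun 0.015 and Npas4 0.018 with GC and length correction. With single libraries left out, signs changed within these ranges: Arc -0.033 to 0.30 (Het against WT, E14.5) and -0.064 to 0.37 (Hom against Het), Fos -0.087 to 0.13 and Jund -0.054 to 0.15 (both Hom against Het), Npas4 -0.011 to 0.16 (Het against WT, PFC). For female against male the ranges were -0.12 to 0.065 (Jun), -0.10 to 0.023 (Junb) and -0.085 to 0.083 (Npas4). For the interaction they were -0.10 to 0.18 (Junb) and -0.0012 to 0.21 (Jund). Arc and Fosb between the sexes kept their sign without single libraries, from -0.33 to -0.14 and from -0.14 to -0.0045.

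The counts behind the shares of all genes moved more. Hom against WT (944) gave 468 without trend and robust settings and 511 with the near-zero directions as covariates, and 489 to 1105 with single libraries left out: 525 without Hom F01, 489 without Hom F04, 501 without Hom F09, 592 without Hom M02 and 495 without WT F04. Het against WT at E14.5 (724) gave 379 with only the groups compared, 225 without trend and robust settings, 335 with the near-zero directions, 1087 without Het F10 and Het M11, and 131 (without Het F07) to 1176 (without Het M07) with single libraries left out; WT F04, F06 and F12, Het F02 and M01 and Hom M02 also moved it by over 1.5 times, to 303, 440, 468, 404, 433 and 474. Hom against Het (1) gave 0 with the prefix block, only the groups compared, no trend and robust settings, the near-zero directions, voom or GC and length correction, and 0 to 1 with single libraries left out. Het against WT in the PFC (52) gave 2 without sex, 19 with the prefix block, 0 without trend and robust settings, 17 with the near-zero direction and 3 to 130 with single libraries left out: 3 without WT F04, WT M11, Het F04 or Het F07, 5 without WT F10, 7 without Het F02, 33 without WT F06, 106 without WT M07, 122 without Het M05 and 130 without Het M09. Female against male (140) gave 9 with the prefix block, 10 without trend and robust settings, 62 with the near-zero direction, 219 with GC and length correction and 16 (without Het M08) to 277 (without WT F10) with single libraries left out. The interaction (0) gave 1 with GC and length correction and 0 to 13 (without WT F06) with single libraries left out.

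Centring each library on its median turned 401 higher and 543 lower genes in Hom into 294 and 746, 353 and 371 in Het at E14.5 into 213 and 509, and 23 and 29 in the PFC into 20 and 51. GC and length correction gave 219 and 632 in Hom, 114 and 497 in Het at E14.5, and 57 and 162 against 55 and 85 between the sexes. Low counts limit Fos, Egr1, Arc and Nr4a1 at E14.5.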
